A study of Macaca fascicularis with 32 samples.

Results

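Single nuclei of the putamen were compared between a monkey model of Parkinson's disease (PD) and its control (CT), over the 17773 putamen barcodes with at least 500 detected genes. Of these, 10172 came from the CT library and 7601 from the PD library. All 6 libraries of the study, 3 regions by 2 groups, held 55091 such barcodes, and 56659 without the minimum. The animals were cynomolgus macaques, and nuclei from the substantia nigra, putamen and caudate nucleus were counted on a droplet platform that reads the 3′ ends of transcripts. PD animals carried an accelerated model that joins an AAV vector with poly(ADP-ribose). What the CT animals received, and the ages, doses, vector promoter and sites of injection, are not given in the sources used here. The labels list 4 putamen samples for PD and 8 for CT, among 32 in all, but each group is 1 matrix with no map from barcode to sample. Every value below therefore compares 1 pooled library with 1 pooled library, with no replicate check and no test. Group, animals and library cannot be told apart.

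The putamen is the striatal region most tied to movement, and dopamine from the nigra acts there on spiny projection neurons (SPNs), which make up most of its neurons. SPNs of the direct pathway carry the dopamine receptor DRD1 and the peptide genes TAC1 and PDYN, and those of the indirect pathway carry DRD2, ADORA2A and PENK. Loss of that dopamine input is the best known feature of Parkinson's disease, and the 2 SPN kinds respond to it differently.

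The CT library held 33261605 UMIs (unique molecular identifiers, each 1 captured transcript) and the PD library 23195183, with medians of 2352.5 and 2205 UMIs and 1459 and 1356 genes a barcode. Only 16 of the barcodes were the same in both. The minimum of 500 genes left out 217 CT barcodes, with 405 to 499 genes and a median of 555 UMIs, and 101 PD barcodes, with 417 to 499 genes and a median of 547. Just inside it, with 500 to 599 genes, lay 639 CT barcodes (median 683 UMIs) and 259 PD barcodes (median 659). Mitochondrial transcripts were 0.0223% of CT and 0.0144% of PD UMIs, and ribosomal protein transcripts 0.1999% and 0.162%. Levels are CPM, a gene's UMIs scaled to the total UMIs of its library or class of nuclei. They are not divided by gene length, so levels of different genes are not compared. Ratios are PD over CT with exact 95% intervals, which cover counting error only and not the spread between animals. In summed nuclei, fewer cells of a type and less RNA per cell cannot be told apart.

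The label putamen was checked against genes of striatal spiny neurons. PDE10A, a phosphodiesterase abundant in these neurons, was at 5226 CPM in CT and 5708 CPM in PD. DRD2 was at 229.6 and 247 CPM and PPP1R1B, which encodes the dopamine-regulated phosphatase inhibitor DARPP-32, at 232 and 214 CPM. Of the defining genes, DRD1 was near 0 in both, with 55 and 26 UMIs (1.65 and 1.12 CPM), and PDYN had 48 and 36 UMIs.

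Genes with 200 UMIs or more in CT and PD together were compared, and these are the genes called tested below, although no test of significance was possible. Of 11820 such genes, 401 (3.39%) were at least 1.5-fold higher and 782 (6.62%) at least 1.5-fold lower in PD. The median log2 ratio over these genes was -0.04, and 56.8% of them lay below 0. The genes named next are those whose interval lay farthest from no difference, 10 a direction, first over all levels and then among the 3448 genes at 50 CPM or more in both libraries. All of them lay past 1.5-fold by the way they were chosen.

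Most of the 10 highest genes had few UMIs in CT and were plainly present in PD. EFHB, which encodes an EF-hand protein, was at 0.661 CPM in CT and 18.9 CPM in PD (ratio 28.6, 18.7 to 46.1). ABO, the glycosyltransferase of the blood group, was at 2.71 CPM in CT and 55.7 CPM in PD (ratio 20.6, 16.6 to 25.8). MLPH, which encodes melanophilin, a linker of vesicles to myosin, was at 2.01 and 25.05 CPM. The Wnt pathway inhibitor NKD2 was at 3.76 and 36.6 CPM, and SP100, a part of nuclear bodies, at 14.8 and 74.3 CPM. The other 5 were CCNYL2, ACBD7, UGT2B20, TMEM114 and ATP6AP1L, with ratios from 4.15 to 8.9995. UGT2B20 belongs to a family of near-identical glucuronosyltransferases, so its reads may be shared with its copies.

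Within spiny neurons several of these genes lay far apart between CT and PD, and some did in other classes too. Nuclei were grouped into classes by clustering both putamen libraries, and a class is called "-like" because markers alone name it. In SPN-like nuclei, 3799 in CT and 3143 in PD, ABO was at 0.881 CPM in CT and 67.8 CPM in PD. In the 245 CT and 175 PD interneuron-like nuclei of the same libraries it was at 47.1 and 83.5 CPM. NKD2 was at 1.97 and 41.8 CPM in SPN-like nuclei and at 26.9 and 66.6 CPM in interneuron-like nuclei. SP100 was at 4.77 and 80.2 CPM in SPN-like nuclei against 70.7 and 77.5 CPM in interneuron-like nuclei. These 3 genes were thus lower in SPN-like than in interneuron-like nuclei of CT by more than their counting error. ACBD7, which encodes an acyl-CoA binding protein, was at 0.674 CPM in CT and 33.1 CPM in PD in SPN-like nuclei, and at 207 and 323 CPM in astrocyte-like nuclei. UGT2B20 was at 2.64 and 16.05 CPM in SPN-like nuclei. ATP6AP1L was at 4.51 and 29.1 CPM in SPN-like nuclei and at 21.6 and 46.8 CPM in oligodendrocyte-like nuclei. EFHB was higher in PD in both of these classes, at 0.726 and 15.9 CPM in SPN-like and at 0.214 (1 UMI) and 28.9 CPM in oligodendrocyte-like nuclei. The levels of MLPH and TMEM114 in PD were higher in a glial class than in SPN-like nuclei. MLPH was at 7.49 CPM in CT and 125 CPM in PD in oligodendrocyte-like nuclei, and at 0.363 and 2.23 CPM in SPN-like nuclei. TMEM114, a transmembrane protein gene, was at 5.78 CPM in CT (5 UMIs) and 178 CPM in PD (90 UMIs) in microglia-like nuclei.

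The 10 lowest genes had the reverse pattern. WDR88, a WD-repeat gene, was at 12.7 CPM in CT and 1.25 CPM in PD (ratio 0.0981, 0.0649 to 0.143). EVC, which encodes a ciliary protein of hedgehog signalling, was at 19.51 and 2.72 CPM, and at 23.9 and 2.65 CPM in SPN-like nuclei. CDH23, a cadherin best known from hair cells, was at 68.9 CPM in CT and 13.7 CPM in PD (ratio 0.198, 0.176 to 0.223). It was at 87.0 and 13.5 CPM in SPN-like nuclei and at 70.5 and 71.3 CPM in microglia-like nuclei. ITM2A, a membrane protein gene, was at 15.03 and 2.46 CPM, with 46.2 and 5.23 CPM in oligodendrocyte-like nuclei. PSMB9, the immunoproteasome subunit, was at 8.69 and 1.42 CPM, with 21.0 and 1.38 CPM in oligodendrocyte-like nuclei. PRR22, HLA-DPB1, FAM217A, P2RX1 and CR1L made up the rest, with ratios from 0.0923 to 0.190. HLA-DPB1 is one of a family of near-identical genes, and CR1L resembles other complement receptor genes, so both counts are uncertain.

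**Figure D1:**
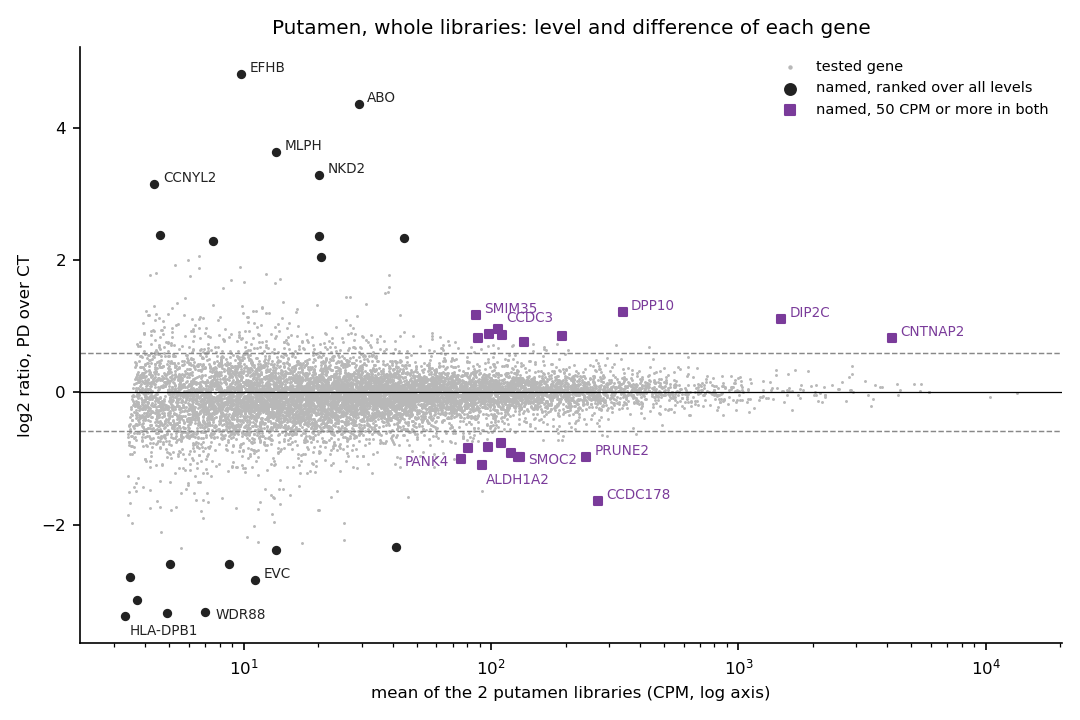
Each point is 1 of 11820 tested genes, with its mean level over the CT and PD putamen libraries in CPM on a log axis and its log2 ratio of PD over CT; black points are the 10 highest and 10 lowest genes over all levels, purple squares those at 50 CPM or more in both, and dashed lines mark 1.5-fold. EFHB, at a log2 ratio of 4.81, and WDR88, at -3.33, lie far out at low levels, while CNTNAP2 and DIP2C stand out among abundant genes.

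The abundant genes higher in PD included CNTNAP2, DPP10 and DIP2C. CNTNAP2, a neurexin relative that places potassium channels, was at 3039.9 CPM in CT and 5344 CPM in PD (ratio 1.76, 1.74 to 1.77). DPP10, an auxiliary subunit of A-type potassium channels, was at 206 CPM in CT and 475 CPM in PD (ratio 2.31, 2.24 to 2.38). DIP2C, a gene of the DIP2 family, was at 941 and 2032 CPM (ratio 2.16, 2.13 to 2.19). The other 7 were SMIM35, CCDC3, PLPP1, P3H2, SLC7A8, TNS3 and ASAP2, with ratios from 1.70 to 2.24. Within classes CNTNAP2 was at 3834 and 6960.0 CPM in SPN-like nuclei but at 3923 and 3582 CPM in interneuron-like nuclei, so the 2 neuron classes lay on opposite sides of 1. DPP10 was higher in PD in direct pathway nuclei, at 40.0 and 237 CPM, in indirect pathway nuclei, at 273 and 595 CPM, and in astrocyte-like nuclei, at 205 and 1369 CPM.

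The abundant genes lower in PD were led by CCDC178, a coiled-coil gene, at 411 CPM in CT and 131 CPM in PD (ratio 0.320, 0.307 to 0.333). It was at 532 and 169 CPM in SPN-like nuclei. ALDH1A2, an enzyme of retinoic acid synthesis, was at 125 and 58.3 CPM. MDH1, the cytosolic malate dehydrogenase, was at 174 CPM in CT and 88.5 CPM in PD and was lower in each class with a value in the plot of ranked genes by class. It was at 179 and 96.4 CPM in SPN-like, 165 and 72.7 CPM in oligodendrocyte-like and 170.0 and 83.2 CPM in microglia-like nuclei. PRUNE2 was at 323 and 163 CPM and lay mostly in oligodendrocyte-like nuclei, at 1382 and 577 CPM. EPB41L4A, which encodes a band 4.1 protein of the membrane skeleton, was at 139 and 81.1 CPM. In SPN-like nuclei it was at 119 CPM in CT and 23.7 CPM in PD, and in oligodendrocyte-like nuclei at 246 and 318 CPM. PANK4, SMOC2, CCDC171, CCDC78 and TRPM6 had ratios from 0.495 to 0.565.

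**Figure D2:**
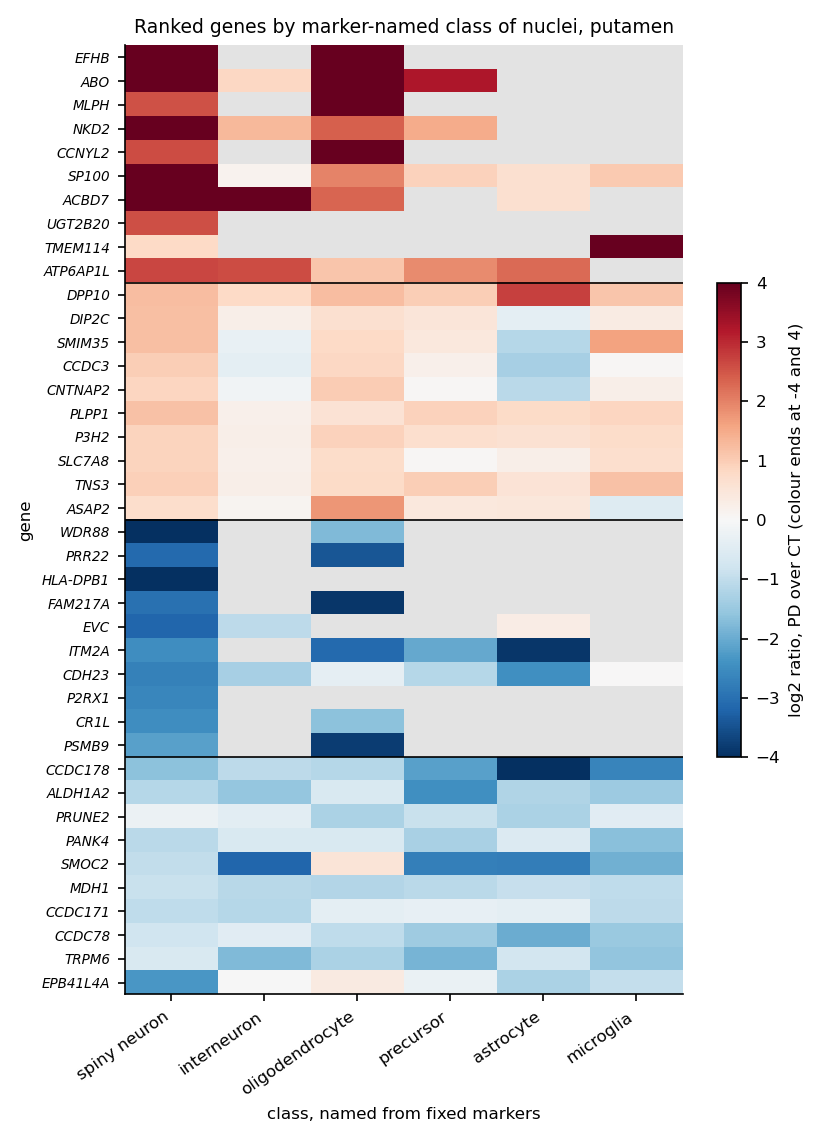
Rows are the 40 ranked genes in 4 blocks (highest over all levels, highest at 50 CPM or more, lowest over all levels, lowest at 50 CPM or more), columns are marker-named classes of putamen nuclei, and colour is the log2 ratio of PD over CT, ending at -4 and 4; grey squares had fewer than 20 UMIs. MDH1 is blue in all 6 classes, and EPB41L4A is blue in spiny neurons and faint red in oligodendrocytes.

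Nuclei of every class rest on 9662 CT and 7183 PD barcodes left after a doublet score limit, which removed 509 and 418. SPN-like nuclei were 39.3% of CT and 43.8% of PD nuclei (ratio 1.11, 1.06 to 1.17). Direct pathway nuclei were 15.3% and 15.6% (ratio 1.01, 0.937 to 1.10), and indirect pathway nuclei 17.8% and 22.3% (ratio 1.25, 1.17 to 1.34). Where only nuclei of at least 1000 genes were kept, these ratios were 1.10 for direct and 1.06 for indirect pathway nuclei. SPN-like nuclei that could not be assigned to either pathway were 4.11% and 3.58%. Astrocyte-like nuclei were 2.76% and 1.89% (ratio 0.685, 0.553 to 0.845), with a ratio of 0.395 where only nuclei of at least 1000 genes were kept. Oligodendrocyte-like nuclei were 41.9% and 38.0% (ratio 0.908, 0.864 to 0.953), and microglia-like nuclei 4.58% and 6.14% (ratio 1.34, 1.17 to 1.53). With only nuclei of at least 1000 genes, clustered anew, the oligodendrocyte ratio was 1.11 and the microglia ratio 0.688, so both changed side. The members of the microglia-like class may differ there too. It was then a cluster of 235 CT and 121 PD nuclei, with oligodendrocyte markers second. At the main setting a microglia-led cluster of 219 CT and 126 PD nuclei, also with oligodendrocyte markers second, was left out as mixed. Depth and class membership cannot be told apart in this ratio. Median depths were 1048 and 1208 UMIs in oligodendrocyte-like, 852 and 803 UMIs in microglia-like and 4707 and 4343 UMIs in SPN-like nuclei. In astrocyte-like nuclei they were 1820 UMIs in CT and 1335 UMIs in PD. Depth and share thus cannot be told apart in the astrocyte ratio of 0.395. In whole libraries the 7 astrocyte markers summed to 1389 and 1349 CPM (ratio 0.971, 0.957 to 0.985). Clusters of mixed markers, left out of these classes, held 5.72% of CT and 3.98% of PD nuclei.

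Oligodendrocyte-like nuclei separated by library. Clusters 0 and 1 held 2372 and 1411 CT nuclei with 192 and 60 PD nuclei, and cluster 2 held 262 CT and 2478 PD nuclei. Values within that class therefore compare nuclei of different clusters, and these clusters may be the libraries rather than cell states. Direct pathway nuclei (cluster 4, 1483 CT and 1117 PD) and microglia-like nuclei (cluster 9, 443 and 441) each shared 1 cluster at this setting. Spiny neurons separated by library too when only nuclei of at least 1000 genes were clustered. Direct pathway nuclei then lay in a cluster of 1268 CT and 163 PD nuclei and one of 154 and 1061, and indirect pathway nuclei in one of 1456 and 142 and one of 166 and 1178. At a Leiden resolution of 2.0 the indirect pathway held clusters of 1174 CT and 184 PD and of 230 CT and 985 PD nuclei. Values within SPN-like nuclei may thus also compare nuclei that group by library.

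Cholesterol synthesis genes were lower in PD almost throughout. The enzymes turn acetyl-CoA into mevalonate, squalene, lanosterol and then cholesterol, which brain cells make locally. Of 18 tested genes of a list of 21, 17 were lower in PD, 9 of them by at least 1.5-fold and none higher by that much, beside 6.62% and 3.39% of all genes. The median log2 ratio was -0.59, against -0.04 over all genes.

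The early steps came first. HMGCS1, which makes HMG-CoA, was at 23.2 CPM in CT and 12.2 CPM in PD (ratio 0.525, 0.457 to 0.602). IDI1, the isopentenyl diphosphate isomerase, was at 23.2 and 12.98 CPM (ratio 0.560, 0.488 to 0.640). At the squalene steps FDFT1 was at 40.4 and 27.0 CPM and SQLE at 47.0 and 30.9 CPM. LSS, which closes the ring to lanosterol, was at 21.6 and 21.9 CPM (ratio 1.02, 0.907 to 1.14) and was the 1 member not lower. Of the later steps, CYP51A1 was at 40.7 and 26.9 CPM and MSMO1, the methylsterol oxidase, at 46.1 CPM in CT and 19.8 CPM in PD (ratio 0.429, 0.386 to 0.477). MSMO1 had the lowest ratio in the list.

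In SPN-like nuclei all 15 tested members were lower, 9 of them by at least 1.5-fold, beside 5.92% of genes lower and 3.33% higher by that much there. MSMO1 was at 49.7 and 19.5 CPM in these nuclei, at 51.4 and 21.5 CPM in direct and at 50.7 and 20.2 CPM in indirect pathway nuclei. In direct pathway nuclei 6 of 11 tested members were lower by at least 1.5-fold, beside 5.20% of genes (2.37% higher), and in indirect pathway nuclei 8 of 11, beside 5.18% (2.81% higher). In oligodendrocyte-like nuclei 6 of 7 tested members were lower, 3 past 1.5-fold beside 9.23% of genes (3.66% higher), with a median log2 ratio of -0.13.

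Genes of cholesterol uptake, export and control were at the background, with a median of -0.03 over 17 tested genes, 1 at least 1.5-fold higher and 1 lower. The lower one was STARD4, a carrier of cholesterol within cells, at 26.3 CPM in CT and 14.1 CPM in PD (ratio 0.538, 0.473 to 0.612). SREBF2, the transcription factor that drives the synthesis genes, was at 142 and 117 CPM. INSIG1, which holds that factor back, was at 10.7 CPM in both. The higher one was the lipid transporter ABCA7, at 8.78 and 13.9 CPM. Fatty acid synthesis genes had a median of -0.01 over 9 genes, none past 1.5-fold.

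**Figure D3:**
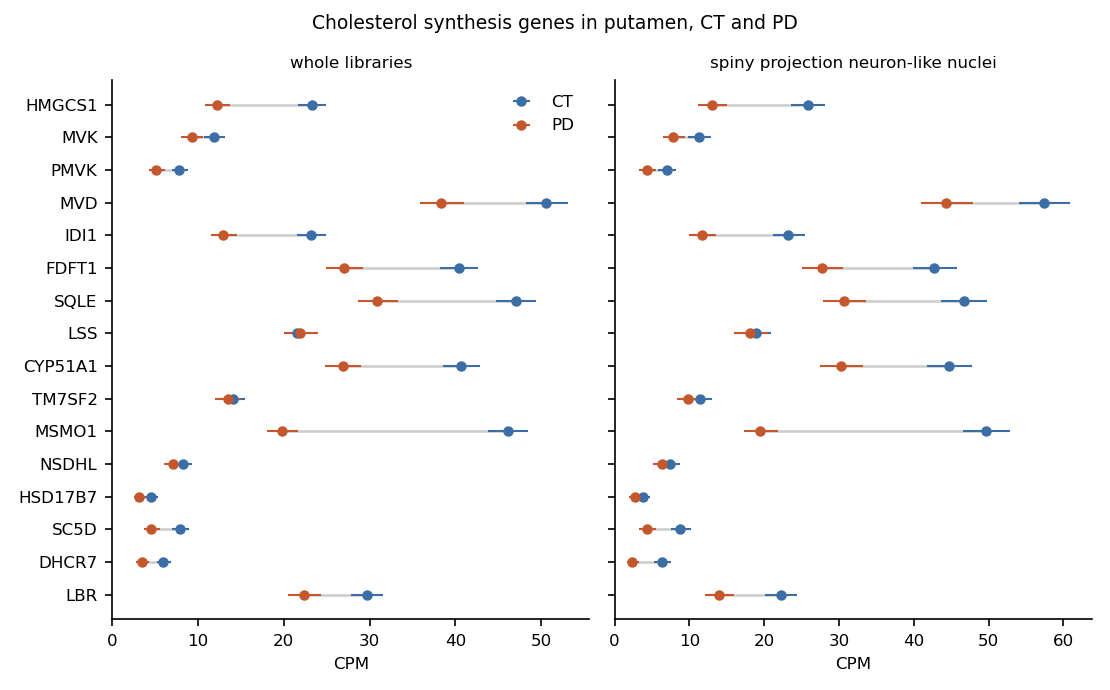
Levels in CPM of 16 of the 18 tested cholesterol synthesis genes, from the mevalonate steps at the top to the last sterol steps, in CT (blue) and PD (red-orange) putamen, for whole libraries on the left and SPN-like nuclei on the right; bars are exact 95% Poisson intervals of counting. PD lies left of CT for each gene but LSS in whole libraries, with the widest gap at MSMO1.

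The peptide genes of striatal neurons were lower in PD too, in neurons and outside them. All 4 of the 8 listed that had enough UMIs were lower, 3 of them by at least 1.5-fold, beside 6.62% of all genes (3.39% higher), with a median of -1.03. PENK, the enkephalin precursor, was at 79.4 CPM in CT and 40.2 CPM in PD (ratio 0.507, 0.470 to 0.546). TAC1, the precursor of substance P, was at 105 and 71.7 CPM (ratio 0.685, 0.646 to 0.726). The interneuron peptides SST, somatostatin, at 19.8 and 6.60 CPM, and NPY at 43.3 and 20.4 CPM had ratios of 0.333 and 0.471.

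PENK was at 99.2 and 59.9 CPM in indirect pathway nuclei (ratio 0.604, 0.537 to 0.679) and at 42.0 and 17.8 CPM in direct pathway nuclei, which should lack it. In oligodendrocyte-like nuclei, which also should lack it, PENK was at 131 and 38.0 CPM (ratio 0.291, 0.240 to 0.350), above its level in the indirect pathway nuclei of CT. TAC1 was at 147 and 126 CPM in direct pathway nuclei (ratio 0.861, 0.780 to 0.950) and at 136 and 53.7 CPM in oligodendrocyte-like nuclei. Free RNA gives such transcripts to other nuclei, and the summed peptide genes in oligodendrocyte-like nuclei were 407 CPM in CT and 140 CPM in PD (ratio 0.344, 0.311 to 0.379). No correction for free RNA was made, and its part in the values of these genes was not tested. In direct pathway nuclei the TAC1 ratio lay closer to 1 than in the whole library.

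Striatal dopamine and cyclic AMP genes, 20 tested, were at the background as a list, with 8 higher, 12 lower and a median of -0.06. By at least 1.5-fold 2 were lower, beside 6.62% of all genes lower and 3.39% higher by that much. DRD2 was at 513 and 534 CPM in indirect pathway nuclei. ADORA2A, the adenosine receptor of the same neurons, was at 78.6 and 60.7 CPM there (ratio 0.773, 0.683 to 0.873). DRD3, another dopamine receptor, was at 46.7 and 32.4 CPM in SPN-like nuclei (ratio 0.695, 0.620 to 0.778). The G protein GNAL, which couples DRD1 and ADORA2A to cyclic AMP, was at 889 and 1041 CPM in SPN-like nuclei, the cyclase ADCY5 at 918 and 953 CPM and the regulator RGS9 at 373 and 445 CPM. The 2 genes lower past 1.5-fold were RGS4, another regulator of G proteins, at 30.6 and 14.3 CPM, and CALY, a dopamine receptor interacting protein, at 40.0 and 20.5 CPM. CALY too was higher in CT oligodendrocyte-like nuclei, at 72.5 and 27.0 CPM, than in SPN-like nuclei, at 33.2 and 19.0 CPM.

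Synaptic lists differed little between the libraries. Past 1.5-fold lay 3.39% of all genes on the higher side and 6.62% on the lower. Synaptic vesicle genes had a median of -0.10 over 19 genes, none past 1.5-fold, with SNAP25, a membrane fusion protein, at 209 and 147 CPM. Receptors and scaffolds of glutamate synapses had a median of -0.02 over 24 genes, with 2 higher by at least 1.5-fold. HOMER1, a scaffold that links glutamate receptors, was at 335 CPM in CT and 539 CPM in PD (ratio 1.61, 1.57 to 1.65), and at 423 and 687 CPM in SPN-like nuclei. SHANK3, another scaffold, was at 56.9 and 90.3 CPM (ratio 1.59, 1.49 to 1.69). In SPN-like nuclei SHANK3 was at 60.0 and 70.8 CPM and in oligodendrocyte-like nuclei at 64.6 and 190 CPM. GABA genes had a median of -0.03 over 18 genes, with 2 lower past 1.5-fold, the vesicular transporter SLC32A1 at 14.6 and 8.67 CPM and the receptor subunit GABRG1 at 8.09 and 5.001 CPM. Immediate early genes, 7 tested, had a median of -0.14, and HOMER1 was the 1 past 1.5-fold.

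Transcripts made in mitochondria and those of ribosomal proteins were lower in PD, and both can report on RNA from outside the nucleus. All 10 tested mitochondrially encoded genes were lower, 7 by at least 1.5-fold, with a median of -0.63, beside 6.62% of all genes lower and 3.39% higher by that much. CYTB, a subunit of complex III, was at 39.5 CPM in CT and 22.6 CPM in PD (ratio 0.572, 0.516 to 0.634). Of 53 ribosomal protein genes 50 were lower, 6 by at least 1.5-fold, with a median of -0.29, and RPS29 was at 77.3 and 40.4 CPM. In oligodendrocyte-like nuclei 45 of 46 ribosomal protein genes were lower, 19 past 1.5-fold, beside 9.23% of all genes lower and 3.66% higher by that much there, with 55.1% of them below 0. In microglia-like nuclei their summed level was instead 2844 CPM in CT and 3108 CPM in PD. In astrocyte-like nuclei it was 2199 and 2788 CPM (ratio 1.27, 1.15 to 1.40). The mitochondrially encoded genes summed to 352 and 406 CPM in astrocyte-like nuclei (ratio 1.15, 0.889 to 1.48), but to 290 and 228 CPM in microglia-like nuclei.

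Genes of the respiratory chain coded in the nucleus, 22 tested, had 20 lower, 3 by at least 1.5-fold, and a median of -0.28. Over all genes 56.8% lay below 0, and 6.62% were lower and 3.39% higher by at least 1.5-fold. COX8A, a subunit of cytochrome oxidase, was at 31.6 and 17.5 CPM. Heat shock and unfolded protein genes, 12 tested, had 10 lower, 3 past 1.5-fold, and a median of -0.28, with HSP90AB1, a chaperone, at 57.0 and 34.6 CPM and ATF4, a stress transcription factor, at 19.51 and 11.3 CPM. ATF4 was at 15.7 and 9.42 CPM in SPN-like and 25.9 and 13.5 CPM in oligodendrocyte-like nuclei. Proteasome genes (25, median -0.08), lysosome genes (21, -0.03), oxidative stress genes (11, -0.13), iron genes (8, -0.16) and cell death genes (10, -0.08) held 2 genes past 1.5-fold in all, both lower. These were PSMB6, a catalytic proteasome subunit, at 12.5 and 7.33 CPM, and CASP8, an initiator caspase, at 7.46 and 4.61 CPM.

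**Figure D4:**
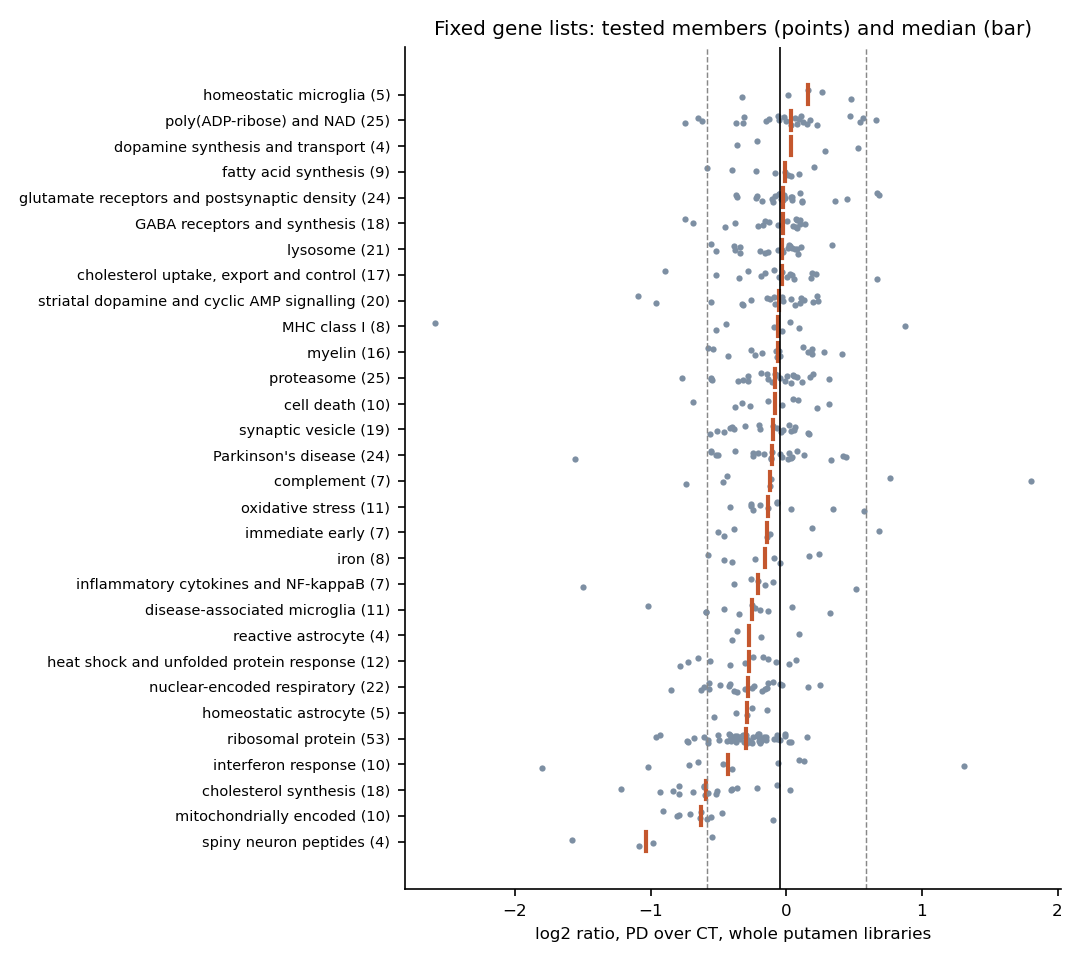
Points are the log2 ratios of PD over CT of the tested members of each fixed list with 4 or more tested genes in whole putamen libraries, bars are list medians and the number of members is in brackets; the solid line is the median of all 11820 genes and dashed lines mark 1.5-fold. Peptide, mitochondrially encoded and cholesterol synthesis genes have the lowest medians, and homeostatic microglia genes the highest, although that median ranged from -0.04 to 0.29 over other settings.

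Genes of poly(ADP-ribose) metabolism, the polymer given in the model, were mixed. PARP1, the main enzyme that makes poly(ADP-ribose), was at 40.8 and 40.7 CPM (ratio 0.998, 0.917 to 1.09). PARG, which breaks the polymer down, was at 150.3 and 135 CPM (ratio 0.901, 0.862 to 0.943). Of 25 genes of poly(ADP-ribose) and NAD metabolism, 13 were higher and 12 lower. Past 1.5-fold were 1 and 3 of them, beside 3.39% and 6.62% of all genes. The genes past it were PARP16, at 9.71 and 15.4 CPM, and MIF, PARP9 and OARD1, a hydrolase that removes ADP-ribose. MIF, a cytokine that can also act as a nuclease, was at 27.0 and 16.04 CPM. PARP8 was at 26.5 and 39.2 CPM (ratio 1.48, 1.35 to 1.62), just inside 1.5-fold.

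Of 24 tested Parkinson's disease genes, 9 were higher and 15 lower, with a median of -0.11, beside 56.8% of all genes below 0. Past 1.5-fold was 1 of them, beside 6.62% of all genes lower and 3.39% higher by that much. This was BST1, an ADP-ribosyl cyclase, at 19.2 CPM in CT and 6.51 CPM in PD (ratio 0.339, 0.282 to 0.406). It was at 21.6 and 5.93 CPM in SPN-like nuclei. The kinase gene LRRK2 was at 134 and 182 CPM in SPN-like nuclei (ratio 1.35, 1.28 to 1.43). UCHL1, a ubiquitin hydrolase, was at 142 and 97.0 CPM, and TMEM175, a lysosomal potassium channel, at 52.6 and 35.8 CPM.

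Glial and immune lists were mixed. Myelin genes had a median of -0.06 over 16 genes, none past 1.5-fold, with FA2H, which makes the hydroxylated lipids of myelin, at 99.0 and 131 CPM. Homeostatic microglia genes had a median of 0.16 over 5 genes and disease-associated microglia genes one of -0.25 over 11. Of the latter, 3 were lower past 1.5-fold and none higher, beside 6.62% and 3.39% of all genes. SPP1, which encodes osteopontin, was at 94.4 and 46.6 CPM. Its level was higher in oligodendrocyte-like nuclei, at 292 and 131 CPM, than in microglia-like nuclei, at 129 and 51.5 CPM. CD9 and CD63, both tetraspanins, were the others, at 32.3 and 21.4 CPM and at 13.8 and 9.14 CPM.

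In microglia-like nuclei CSF1R, the growth factor receptor these cells depend on, was at 187 CPM in CT and 398 CPM in PD (ratio 2.13, 1.72 to 2.63). IL18, a cytokine, was at 119 and 317 CPM there (ratio 2.66, 2.07 to 3.45), and CD74, the chain that guides MHC class II, at 17.3 and 93.1 CPM (ratio 5.37, 2.95 to 10.3). Spiny neuron markers were lower in PD in the same nuclei. Their 21 genes summed to 8026 CPM in CT and 5419 CPM in PD (ratio 0.675, 0.646 to 0.706), while the 8 microglia markers summed to 1957 and 3264 CPM (ratio 1.67, 1.56 to 1.79). In astrocyte-like nuclei spiny neuron markers summed to 5209 and 2612 CPM, and the astrocyte markers to 11361 and 19955 CPM. The part of neuronal RNA in the ratios within these 2 classes was not tested. GFAP, the filament gene of reactive astrocytes, was at 42.2 CPM (32 UMIs) and 117 CPM (24 UMIs) in astrocyte-like nuclei and at 4.09 and 4.35 CPM in the whole library.

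Interferon genes, 10 tested of 24, had 7 lower and 3 higher, 4 and 1 of them past 1.5-fold, beside 6.62% and 3.39% of all genes, and a median of -0.43. GBP1, a guanylate-binding protein, was at 10.4 CPM in CT and 2.97 CPM in PD (ratio 0.285, 0.217 to 0.370), and at 10.8 and 3.28 CPM in SPN-like nuclei. IFI44L, another interferon-induced gene, was at 4.30 CPM in CT and 10.7 CPM in PD (ratio 2.49, 2.02 to 3.08). MHC class I genes had a median of -0.06 over 8 genes. Beside PSMB9, the class I activator NLRC5 was past 1.5-fold, at 2.80 and 5.13 CPM (93 and 119 UMIs). CD74, at 2.53 and 5.69 CPM, and HLA-DPB1 were the MHC class II genes past 1.5-fold, on opposite sides, among 3 tested. Complement genes had a median of -0.12 over 7 genes, with C5, a component of the lytic pathway, at 1.95 and 6.85 CPM, the inhibitor CD55 at 25.6 and 43.6 CPM, and C1QB at 5.62 and 3.36 CPM. Cytokine and NF-kappaB genes had a median of -0.21 over 7 genes, with IL6 at 5.41 and 1.90 CPM.

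In whole libraries homeostatic astrocyte genes (5 tested, median -0.29) and reactive astrocyte genes (4, median -0.27) had none past 1.5-fold. Within astrocyte-like nuclei the homeostatic genes lay on the other side, with 3 of 3 tested members higher and a median of 0.43. There 1 was higher by at least 1.5-fold, beside 14.0% of genes higher and 18.7% lower by that much. Dopamine synthesis and transport genes, which striatal neurons mostly lack, had 4 tested members in whole libraries and a median of 0.03. No blood gene reached 200 UMIs. In whole libraries the 6 fibroblast markers summed to 23.7 CPM in CT and 9.23 CPM in PD, although 3 of them were higher in PD and their median log2 ratio was 0.04. Sums of 3 other types lay nearer to level, with the 6 endothelial markers at 25.9 and 32.8 CPM, the 14 interneuron markers at 2144 and 1745 CPM and the 5 markers of glutamatergic neurons at 6.46 and 7.63 CPM. Their members were more one-sided than the fibroblast markers for 2 of these types. Of the 6 endothelial markers, 1 had no UMIs in CT or in PD and so has no direction. The others were all higher in PD, and their median log2 ratio of 0.41 counts the empty marker as higher too. Only 2 of the 14 interneuron markers were higher in PD (median -0.36). The part of these cell types in the results was not tested.

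The caudate nucleus, the other striatal region, was compared by the same rule. There 454 genes (3.73%) were at least 1.5-fold higher and 1221 (10.0%) at least 1.5-fold lower in PD, with a median log2 ratio of -0.12. Over 11713 genes tested in both regions the log2 ratios had a Pearson correlation of 0.749 and a Spearman correlation of 0.680 across genes, which are not independent. Of 392 such genes higher in putamen, 187 (47.7%) were also past 1.5-fold in caudate, which is 45.2% of the 414 there, and of 764 lower genes 481 (63.0%), which is 43.3% of 1110. Whether the same animals gave both regions is not stated. ABO was at 2.82 and 45.5 CPM in caudate and EVC at 19.4 and 2.65 CPM. Cholesterol synthesis genes were lower for 18 of 18 members, 8 past 1.5-fold, with a median of -0.51. MSMO1 was at 43.9 and 18.3 CPM there. Other lists differed between the 2 regions in value. Myelin genes had a median of 0.55 in caudate, with 8 of 16 higher by at least 1.5-fold, and the mitochondrially encoded genes one of -0.15 with none past it. PENK was at 78.0 and 65.0 CPM in caudate. The difference between regions was not tested.

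The nigra shared less. Its labels list 4 samples for PD and 4 for CT, whereas putamen and caudate each have 4 and 8. Region and the make-up of the CT pool therefore cannot be told apart in this comparison. In the nigra 567 genes (4.85%) were higher and 651 (5.56%) lower by at least 1.5-fold. Over 11048 genes the correlations were 0.415 and 0.278, and 116 of 342 higher genes (33.9%) and 199 of 634 lower genes (31.4%) of the putamen were past 1.5-fold on the same side. EFHB, at 1.67 and 22.7 CPM, and WDR88, at 12.7 and 1.79 CPM, had the same side in the nigra, while ABO was at 88.5 and 106 CPM and NKD2 at 46.3 and 47.9 CPM. Cholesterol synthesis genes had a median of 0.10 in the nigra, with MSMO1 at 24.3 and 23.5 CPM.

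**Figure D5:**
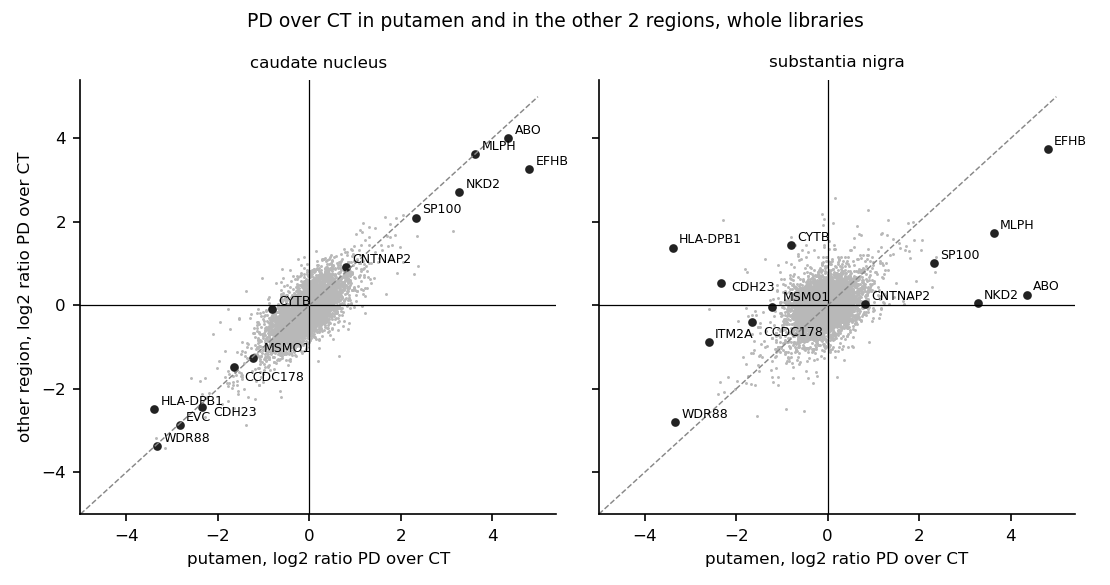
Each point is a gene tested in both regions, with its log2 ratio of PD over CT in putamen on the horizontal axis and in caudate nucleus (left) or substantia nigra (right) on the vertical axis; the dashed line marks equal ratios. ABO and NKD2 lie near that line in caudate and near 0 in the nigra, and MSMO1 is low in both striatal regions only.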

How the data were processed

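The deposited values are UMI counts for each gene and barcode, and per the file headers Cell Ranger 7.0.1 made them, with no normalization by the authors. The submitters' processing notes name hg38, the gene identifiers carry the prefix of Macaca fascicularis, and the extract protocol names Macaca mulatta. A matrix's group is known from its file name alone. UMIs of barcodes with at least 500 genes were summed by library. Log2 ratios had 0.5 UMI added to each side, and genes needed 200 UMIs over both libraries. Intervals are exact Poisson (levels), conditional binomial (ratios) and Clopper-Pearson (shares). For classes, nuclei above 5% mitochondrial UMIs or above 0.25 in doublet score (Scrublet) were left out and the rest clustered in scanpy 1.11.5 (2000 variable genes, 30 components, 15 neighbours, Leiden resolution 1.0, no batch correction). The automatic Scrublet limit marked too few barcodes to use, and the score limit and the rules that turn markers into class names were set after the clusters were seen. The named genes are the 10 farthest a direction by the interval bound nearest to 1, over all levels and at 50 CPM, up to 4 members a list by the same bound, and a few fixed genes. A few genes printed with them (other cholesterol synthesis genes, INSIG1, PDE10A, GNAL, ADCY5, RGS9, ADORA2A, LRRK2 and OARD1) were added after their values were seen. The 34 gene lists, their members and the comparison itself were chosen with earlier results of these data known. The ratio steps were tested on simulated data. Some genes are not reported here by name, although counts and medians of lists include them. Sequences were not used here.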

Additional observations from a re-analysis of the deposited data

Results flagged for a closer look

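The genes given here were past 1.5-fold one way in the putamen and the other way in the nigra, a difference between regions that was not tested and rests on 1 library a group. HLA-DPB1 had log2 ratios of -3.39 in putamen and 1.39 in nigra, and its count may be shared with near-identical genes. GBP1 had -1.80 and 0.88, GBP2 -1.02 and 0.62 and CALY -0.96 and 0.62. C1QB had -0.74 in putamen and 0.75 in nigra, and PARP9 -0.65 and 0.69. Of the mitochondrially encoded genes, ND6 had -0.91 and 1.03, CYTB -0.80 and 1.45, ND1 -0.79 and 0.99 and COX2 -0.64 and 1.19. Mitochondrial transcripts were 0.0223% of CT and 0.0144% of PD UMIs in the putamen, and 0.0177% and 0.0431% in the nigra.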

How the results depend on the processing

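With 1 library a group, no value has an error between animals. No paired analysis was possible because the barcodes carry no sample or replicate number, and for the same reason no replicate could be left out. The counts of genes at least 1.5-fold higher and lower were 208 and 472 (of 8391 genes) with nuclei thinned to 1000 UMIs, which left out 2203 CT and 795 PD nuclei. They were 811 and 1219 (of 14375 genes) with a minimum of 50 UMIs and 139 and 284 (of 7319 genes) with one of 1000 UMIs. At a fold of 2 the counts were 108 and 165 (of 11820 genes). Median ratio scaling moved the median of all genes by 0.03. The median of cholesterol synthesis genes ranged from -0.64 to -0.55 over the alternatives and that of the peptide genes from -1.07 to -0.76. Medians on both sides of 0 were found for immediate early (-0.38 to 0.07), homeostatic microglia (-0.04 to 0.29), dopamine synthesis (-0.27 to 0.21) and MHC class I genes (-0.09 to 0.11), and for GABA, cell death, cholesterol uptake, fatty acid, glutamate, myelin and poly(ADP-ribose) genes, so no direction is read from these lists. Of the log2 ratios of named genes under all alternatives, 861 moved by less than their counting interval, 114 by more and 3 changed side. The alternatives differed in this. With nuclei thinned to 1000 UMIs, 93 moved by less, 69 by more and 1 changed side. With a minimum of 200 genes all 163 moved by less, as did all 163 with the mitochondrial and doublet score limits. FKBP5 was 0.058 and SLC1A3 0.40 with PD nuclei weighted to the class mix of CT, and FOSL2 was 0.067 with thinned nuclei; the cause was not tested. With nuclei of at least 1000 genes the share ratios were 1.10 (direct), 1.06 (indirect), 1.11 (oligodendrocyte), 0.395 (astrocyte) and 0.688 (microglia). With Leiden resolution 0.5 they were 1.17 for indirect pathway and 1.15 for microglia-like nuclei, and with mixed clusters added to their leading class 1.15 for microglia-like nuclei.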
